A study of Rattus norvegicus with 6 samples.

Results

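The transcript ends described here belong to gene loci at which at least 2 ends were measured in the same vascular smooth muscle data. Ends were chosen by their FPKM (fragments scaled to transcript length and to the mapped fragments of a library). An end was kept when this value was 1 or more in at least 2 of 6 libraries, and a locus was taken when it had 2 or more kept ends. This gave 852 ends in 396 loci, against 10179 kept ends in 9723 loci in the whole series, or 4.07% of the loci. The measured FPKM chose these ends, so that an end has an FPKM of 1 somewhere is no result. The end that passed with the least to spare, on chromosome 3 at 56102455 to 56103228, had FPKM values of 1.00 and 1.80 in control replicate 2 and sequence 2 replicate 1 and was not listed in the other libraries. The nearest end that was left out, on chromosome 14 at 89194113 to 89197887, had 0.741 and 1.02 in the controls, 0.775 and 0.993 with sequence 2, and 0.888 and 0.827 with sequence 3.

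The study asked what the loss of SLC2A10 changes in VSMCs, which are contractile cells from the smooth muscle layer of arteries. SLC2A10 encodes GLUT10, a sugar transporter whose inherited loss leads to winding arteries. The libraries came from Rattus norvegicus of the SD strain. The control group (2 libraries) carries the genotype wild type in the labels and control virus in the paper. The groups named sequence 2 and sequence 3 (2 libraries each) carry the genotype SLC2A10-/-, and they are read here as the interference sequences that the titles number 2 and 3. The paper gives short hairpin RNA by virus in cultured rat cells grown out of the aorta, the titles siRNA, the extraction text frozen aorta, and the design text mice, and these accounts were not reconciled here. All groups share the cell source, and the age of the animals is not given in the labels. The labels do not say whether 2 libraries of a group came from separate cultures, so each p below weighs a difference against a spread that may be technical. The files identify loci by XLOC and Ensembl numbers, and no table used here pairs those with gene names. Neither the level of SLC2A10 nor the markers of smooth muscle or of other cell types were therefore checked, and the loci below carry no statement of their function. In RNA of many cells, fewer cells of a type and less RNA per cell cannot be told apart.

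A transcript ends where the RNA is cleaved behind a polyadenylation signal and given a poly(A) tail. A gene can have several ends, either because cleavage occurs at different sites within the same last exon, or because different last exons are used through splicing or through cleavage within an intron. The choice sets the 3′ untranslated region, which carries binding sites for microRNAs and RNA-binding proteins, and with alternative last exons it can also set the last amino acids of the protein. In the deposited files each transcript end is given as a last exon, with its start and end. No locus of the series listed 2 ends that share the start of the last exon. The ends below therefore differ in their last exon, and cleavage at different sites of the same last exon was not told apart. No sequence is shown, because the genome build of the files is not named and no genome of it was used.

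Most loci had 2 kept ends. There were 345 such loci, 46 with 3 ends, 3 with 4 ends and 2 with 6 ends. The ends of 126 loci (31.8%) all stopped at 1 position and differed only in where the last exon began, and the other 270 loci had at least 2 end positions. The 852 ends covered 687 distinct positions. A last exon had a median length of 936 bases, with a range of 10 to 11444, close to the 918 bases of loci with 1 kept end. The loci lay on 21 chromosomes, from 1.75% of the loci with a kept end on chromosome 12 to 6.43% on chromosome X.

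In the loci with 2 ends, 3 layouts were present. In 110 loci (31.9%) both last exons had the same end, and their starts lay 3 to 9253 bases apart with a median of 379. In 33 loci (9.57%) the last exons overlapped and their ends differed by 1 to 5277 bases. In 202 loci (58.6%) the last exons were separate, with ends 208 to 651666 bases apart and a median of 9674.5. Distances between 1 and 100 bases were rare, at 10 loci, whereas 112 loci had ends 1001 to 10000 bases apart and 84 had ends 10001 to 100000 bases apart. The widest pair belonged to XLOC_043686 (ENSRNOG00000008554) on chromosome 8, with last exons at 102371292 to 102371565 and 103021012 to 103023231 on the plus strand. Its upstream end was listed in 4 libraries, at 0.661 in control replicate 2, 1.31 in sequence 2 replicate 1, and 1.15 and 1.86 with sequence 3. The narrowest pair of different positions belonged to XLOC_049247 (ENSRNOG00000021748) on chromosome X, where the last exons 65081592 to 65081905 and 65081591 to 65081902 of the minus strand end 1 base apart. The narrowest pair among those with the same end was XLOC_000178 (ENSRNOG00000017613) on chromosome 1, where the last exons begin at 36431060 and 36431063, 3 bases apart.

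The downstream end was the larger one in most loci with separate last exons. It had the higher mean FPKM in 128 of the 186 such loci with a summed FPKM of 1 or more in every library, and its median share of the locus was 66.6% (quartiles 43.0% and 83.4%). With overlapping last exons it led in 10 of 32 loci, with a median share of 27.4%. With a shared end, the last exon that began further downstream, and was thus the shorter one, led in 43 of 99 loci, with a median share of 42.4%. Each value describes these libraries, and the layouts were not tested against each other.

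**Figure D1:**
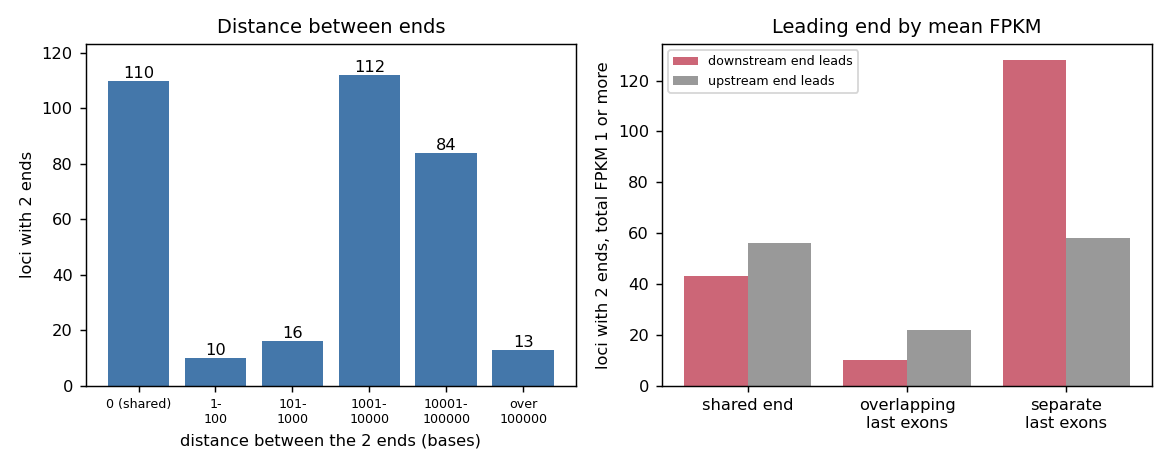
Left, number of loci with 2 kept ends by the distance between the ends in bases. Right, number of loci in which the downstream or the upstream end had the higher mean FPKM over 6 libraries, by layout of the last exons. Distances of 0 and of 1001 to 10000 bases are the most frequent, with 110 and 112 loci, and the downstream end leads in 128 of 186 loci with separate last exons.

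Loci with several ends differed from loci with 1 kept end in other listed events, given here as a description. Several kept transcript starts were present in 7.32% of them and in 14.4% of the loci with 1 end. Exon skipping was listed in 31.6% against 22.6%, intron retention in 5.81% against 4.22%, and alternative exon ends in 28.5% against 16.8%. The median summed FPKM was 11.9 with several ends and 7.83 with 1 end. The part of the level in these differences was not tested. The minus strand held 241 of the 396 loci (60.9%), against 47.7% of the loci with 1 kept end. The share was 65.5% where the ends coincided, 60.6% with overlapping and 58.4% with separate last exons. Among loci with several kept transcript starts, 596 of 1575 (37.8%) lay on the minus strand, against 48.0% of the loci with 1 kept start.

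An end of these loci was listed less evenly across libraries than an end that is alone in its locus. All 6 libraries listed 563 of the 852 ends (66.1%), against 93.0% of the single ends, and 76 ends (8.92%) were listed in only 2 libraries. The number listed per library lay between 725 and 744. An FPKM of 1 or more was reached in all 6 libraries by 461 ends and in exactly 2 by 133. Through the controls alone 17 ends passed the minimum, and through the knockdown libraries alone 86 ends, of which 52 were not listed in either control. The controls can meet the minimum only together, whereas any pair of knockdown libraries can. These counts therefore cannot be set against each other, and the same counts over all kept ends are not given here. The files hold no read counts, so the depth behind these values is unknown, and an unlisted end, which enters as 0, may be a failed estimate.

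The share of an end in the summed FPKM of its locus was taken in 364 loci with 784 ends. The other 32 loci, with 68 ends, fell under a summed FPKM of 1 in some library. Of these, 2 did so in both controls and 3 in all 4 knockdown libraries. The leading end, the one with the highest mean FPKM, held a median of 75.1% of its locus, with a range of 32.7% to 99.7%. It held 90% or more in 78 loci and under 60% in 81 loci. The same end led in all 6 libraries in 239 of the 364 loci (65.7%).

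Shares differed between replicates about as much as between control and knockdown libraries. Across ends, the shares of the 2 libraries of a group correlated at 0.757 in the controls, 0.763 with sequence 2 and 0.74 with sequence 3 (Pearson's r, over 784 ends that share loci and libraries). Control and knockdown libraries correlated at 0.679 to 0.818. The median difference in share between replicates was 7.9 points in the controls, 7.62 with sequence 2 and 8.25 with sequence 3, and that between a control and a knockdown library was 6.37 to 10.5 points. The lowest correlations between libraries of different groups, 0.679, 0.681 and 0.695, all involved replicate 2 of sequence 3. With replicate 1 of sequence 2 it correlated at 0.758. The leading end was the same in both libraries of a group in 81.6% of the loci in the controls and in 84.9% with each sequence.

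**Figure D2:**
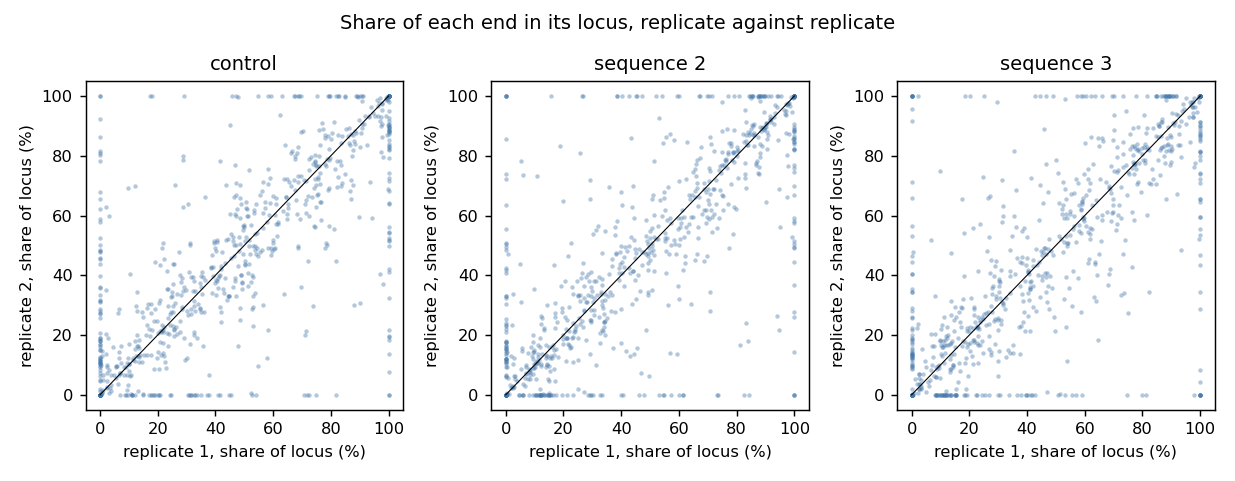
Share of each end in the summed FPKM of its locus, in percent, in replicate 1 (horizontal) and replicate 2 (vertical) of each group, for 784 ends. Most points follow the diagonal, and points along the edges are ends that are unlisted, or hold the whole locus, in 1 of the replicates.

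Large differences between replicates went with unlisted ends and with low totals. Of the 784 ends over 3 replicate pairs, 228 differences reached 40 points, and in 172 of them (75.4%) an end of the locus was unlisted in exactly 1 of the 2 libraries, against 656 of all 2352 differences (27.9%). In 60 loci with a mean summed FPKM of 1 to 5 the median difference was 12.0 points, and the same end led in all 6 libraries in 35.0%. From 5 to 20 the median was 8.91 points (190 loci), from 20 to 100 it was 5.32 points (93 loci), and at 100 or more it was 2.54 points (21 loci). The same end led in all 6 libraries in 67.4%, 78.5% and 81.0% of these loci.

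**Figure D3:**
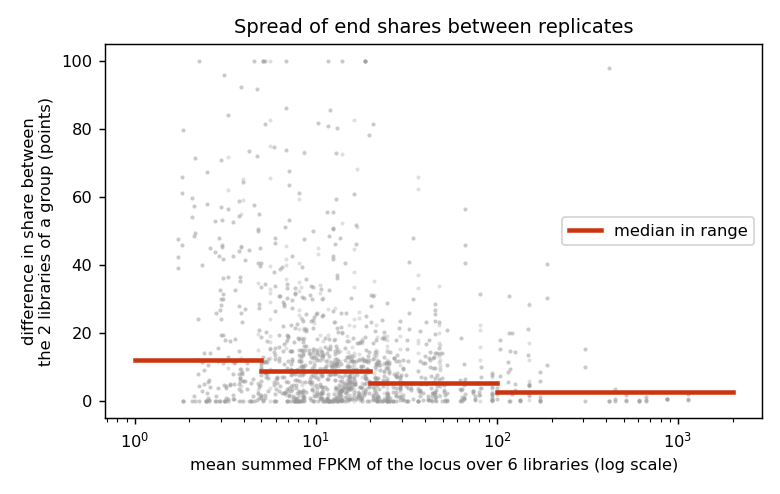
Absolute difference in the share of an end between the 2 libraries of a group, in percentage points, against the mean summed FPKM of the locus on a log scale. Each point is 1 end in 1 group and red lines are medians, which fall from 12.0 points at a total of 1 to 5 to 2.54 points at 100 or more.

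In 9 loci an end held 100% of the locus in one library of a group and was unlisted in the other. The clearest is XLOC_009980 (ENSRNOG00000003075) on chromosome 11, chosen after its values were seen, with last exons from 64722913 to 64726825 and from 64722913 to 64723651 on the minus strand. The longer exon had FPKM values of 19.0 and 0 in the controls, 24.7 and 0 with sequence 2, and 0 and 9.31 with sequence 3. The shorter one had 0 and 17.4, 0 and 23.6, and 18.5 and 0. Each library listed exactly 1 of these ends, and the listed one changed within every group.

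At XLOC_032179 (ENSRNOG00000013589) on chromosome 4, also chosen after its values were seen, a single library decided the shares. Its shorter last exon, 149271389 to 149273891, had 355 and 352 in the controls, 568 and 528 with sequence 2, and 588 and 0 with sequence 3. The longer one, 149268816 to 149273891, had 8.28 and 8.18, 13.6 and 11.9, and 12.8 and 33.8. The longer exon thus held 2.13% to 2.34% in 5 libraries and 100% in replicate 2 of sequence 3.

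In the 3 loci with the highest totals the same end led in every library. XLOC_002236 (ENSRNOG00000015036) on chromosome 1 has last exons from 21851660 to 21853612 and from 21851660 to 21853021 on the minus strand. The longer exon had FPKM values of 107 and 101 in the controls, 108 and 102 with sequence 2, and 96.0 and 110 with sequence 3, which was 8.09% to 10.1% of the locus. XLOC_040990 (ENSRNOG00000054140) on chromosome 7 had 25.5 and 26.4 in the controls, 25.1 and 23.6 with sequence 2, and 22.5 and 23.6 with sequence 3 at its minor end (2906147 to 2907428), or 2.00% to 3.82% of the locus. XLOC_035615 (ENSRNOG00000016731) on chromosome 5 had a minor end (59017575 to 59017890) at 0.293 and 7.76 in the controls, 0.219 and 0.251 with sequence 2, and 2.22 and 0.290 with sequence 3. That end reached at most 1.32% of its locus, in control replicate 2. The shares of the minor end overlapped between knockdown and control at the first and the last of these loci, and at XLOC_040990 every knockdown share lay below both controls (adjusted p = 0.915 from limma).

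At XLOC_018422 (ENSRNOG00000019113) on chromosome 17 both ends were used at nearly equal level. It was the locus of highest total in which the smaller of 2 ends held 40% or more. The upstream end (6675420 to 6675944) had FPKM values of 84.9 and 62.9 in the controls, 78.1 and 76.4 with sequence 2, and 80.4 and 66.4 with sequence 3. The downstream end (6675480 to 6676654) had 96.7 and 102, 105 and 103, and 107 and 69.7. The downstream end led in every library, with a mean share of 56.5%, and its log2 ratio to the other end differed by -0.10 between knockdown and control (standard error 0.32, adjusted p = 0.966 from limma).

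The 2 loci with 6 ends each had a single end position. The last exons of XLOC_001750, on chromosome 1 and without an Ensembl number, all stop at 225215015 on the plus strand and begin between 225208279 and 225210475. The most upstream start had FPKM values of 11.4 and 7.51 in the controls, 8.05 and 11.5 with sequence 2, and 10.8 and 6.75 with sequence 3, the highest of the locus in every library but replicate 2 of sequence 3. Its second exon was listed in both controls (1.75 and 1.64) and both libraries of sequence 2 (1.83 and 3.35) and in neither library of sequence 3. The last exons of XLOC_003897 (ENSRNOG00000050510), also on chromosome 1, all stop at 220480828 on the minus strand. The 2 longest had mean shares of 29.1% and 43.9% and were listed in every library, while each of the other 4 was unlisted in 2 or 3 libraries.

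No end differed in its share between knockdown and control at an adjusted p under 0.05. The test was limma on the log2 ratio of an end to the other kept ends of its locus, and 0 of 784 ends were called, a called share of 0 percent, with a smallest adjusted p of 0.339. At an unadjusted p under 0.05 there were 52 ends (6.63% of those tested). Sequence 2 against control gave 0 calls by limma and 49 ends (6.25%) at an unadjusted p under 0.05, and sequence 3 against control, which shares those controls, gave 0 calls and 53 ends (6.76%). Sequence 3 against sequence 2 gave 0 calls and 39 ends (4.97%). The smallest adjusted p values were 0.212, 0.276 and 0.186. In loci with 2 ends the tests of both ends mirror each other.

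No common direction was seen for the most downstream end. Its log2 ratio to the other ends was higher with knockdown in 188 loci and lower in 176, with a median change of 0.016. limma called 0 of 364 loci, with a smallest adjusted p of 0.508, and 23 loci (6.32%) had an unadjusted p under 0.05, of which 12 were higher and 11 lower.

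These data could detect only large changes of share. The median standard error of the log2 ratio change was 0.53 and its 95% interval reached a median of 1.38 to either side. The interval lay within 1 log2 unit of no change for 64 of the 784 ends (8.16%). For the other 720 ends it reached further. The mean share differed by 20 points or more between knockdown and control for 93 ends, with a median absolute difference of 5.7 points over all ends tested.

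The smallest adjusted p was shared by several ends, and the end with the smallest unadjusted p belonged to XLOC_017858 (ENSRNOG00000017783) on chromosome 16, chosen after its values were seen. Its upstream last exon (73372007 to 73375276, minus strand) had FPKM values of 29.6 and 28.6 in the controls, 21.6 and 22.6 with sequence 2, and 23.1 and 20.6 with sequence 3. It held 100% of the locus in both controls and 83.4% to 90.1% in the knockdown libraries. The second end (73298451 to 73299102) was listed only with sequence 3, at 3.82 and 2.27, and the third (73274042 to 73274228) only with sequence 2, at 3.50 and 4.49. The log2 ratio of the upstream end fell by 2.54 (standard error 0.32, adjusted p = 0.339 from limma), which does not pass the adjusted threshold. Both other ends were unlisted in the controls and were kept through the knockdown libraries alone. That choice fixed the direction of the change in share, so the fall supports nothing.

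Among the 364 loci tested for shares, the leading end of the controls gave way to another in all 4 knockdown libraries at 1. That locus was XLOC_026367 (ENSRNOG00000000777) on chromosome 20. Its first end (3179285 to 3179818, plus strand) had FPKM values of 2.61 and 27.1 in the controls, 2.91 and 2.74 with sequence 2, and 4.42 and 4.79 with sequence 3. The second end (3220591 to 3220708) had 20.4 and 15.4 in the controls and was unlisted in all 4 knockdown libraries. The third, a last exon of 16 bases (3220839 to 3220854), had 104 and 34.6 in the controls and was likewise unlisted with knockdown. The first end thus held 2.05% and 35.2% of the locus in the controls and 100% in every knockdown library. The level of the first end overlapped between the groups, with a log2 fold change of -1.12 (standard error 0.80, adjusted p = 0.479 from limma), which became 0.358 without control replicate 2 and, then passing the threshold, -2.60 without control replicate 1. The share itself was not called (adjusted p = 0.458 from limma). Both ends that were unlisted with knockdown had been kept through the controls alone. That choice fixed the direction of the change in share, so the change of leading end at this locus supports nothing.

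**Figure D4:**
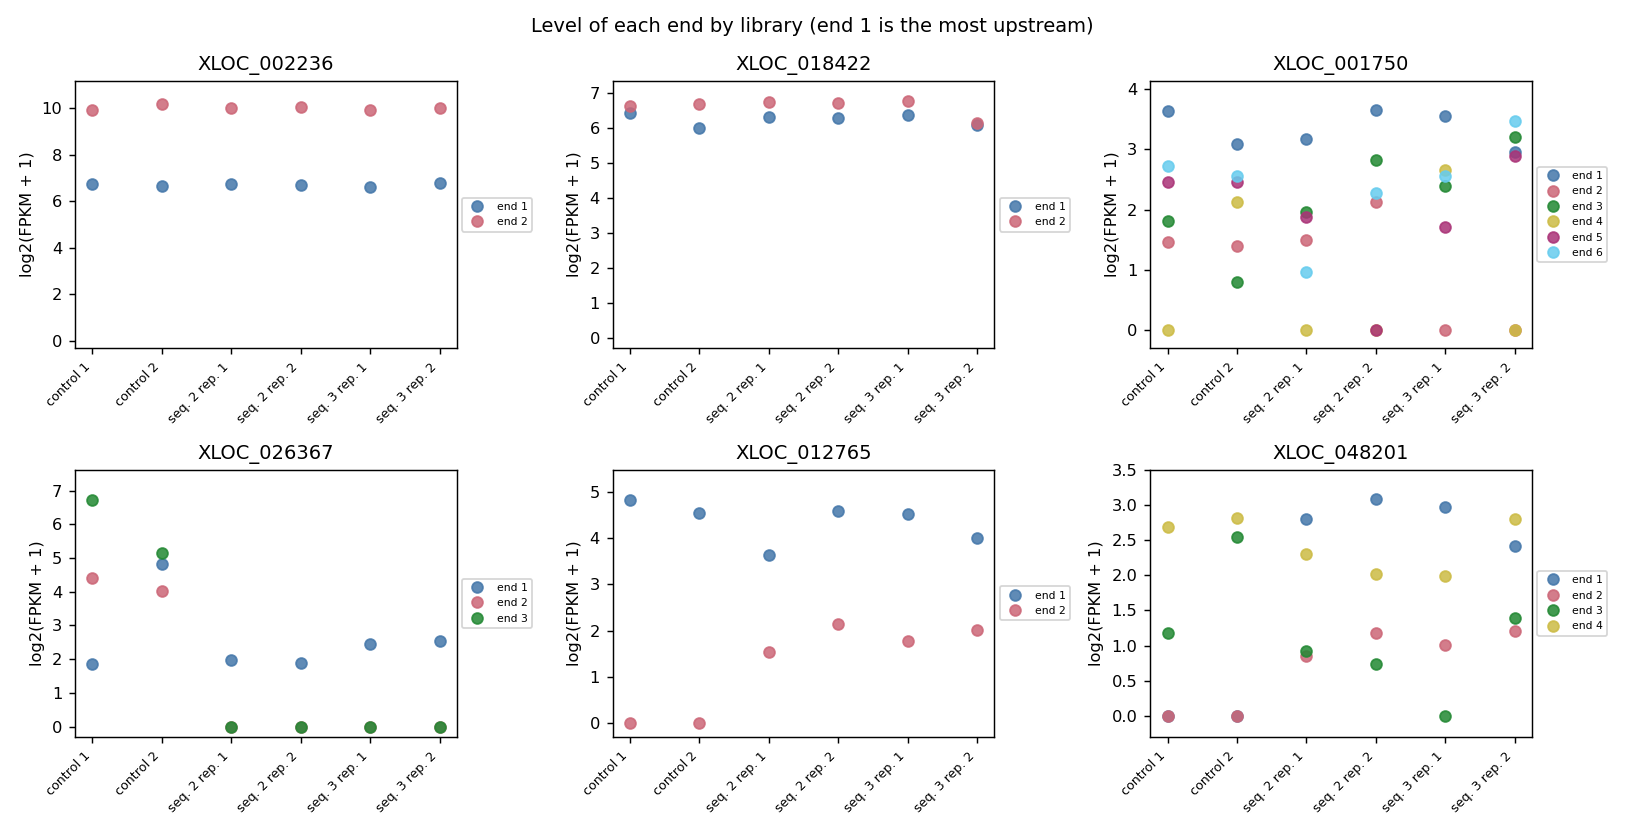
Level of each end as log2(FPKM + 1) in the 6 libraries for 6 loci, with end 1 the most upstream; a value of 0 is an unlisted end. XLOC_002236 and XLOC_018422 keep their order of ends in all libraries, ends 2 and 3 of XLOC_026367 are at 0 in all knockdown libraries, and end 2 of XLOC_012765 and end 1 of XLOC_048201 are at 0 in both controls.

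The level of some ends differed between knockdown and control. limma on log2(FPKM + 1) over all 10179 kept ends called 433 between knockdown and control (4.25%), 185 higher (1.82%) and 248 lower (2.44%). The split leaned further to lower ends when either control or either library of sequence 2 was left out. It did so to a lesser extent without sequence 3 replicate 2, and stayed close to the full split without sequence 3 replicate 1. With every library and an adjusted p under 0.1 the split turned, with 458 higher and 374 lower. Of the 852 ends of loci with several ends it called 27 (3.17%), 7 higher (0.822%) and 20 lower (2.35%), so these ends were called no more often than kept ends in general. At an unadjusted p under 0.05 there were 147 of them (17.3%), against 21.2% of all kept ends. The values of the 4 knockdown libraries and the 2 controls did not overlap for 165 of them (19.4%), against 32.9% of all kept ends. The median log2 fold change was 0.061 for the ends of loci with several ends and 0.085 over all kept ends, and the median standard errors were 0.262 and 0.165. Of the 27 ends, 13 had passed the minimum through the controls alone and 4 through the knockdown libraries alone, which obliged them to differ, and 10 through both. The number called was 16 without control replicate 1, 17 without control replicate 2 and 44 without sequence 3 replicate 1.

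The 27 called ends belonged to 20 loci. Their called ends were lower in 13 loci and higher in 7, and 5 of these loci had ends with fold changes of both signs. Only 6 of them had more than 1 called end, with called ends of 1 direction each. Every end of the locus was called in 4 loci. The lower ends had a median absolute log2 fold change of 2.52 and the higher ones 1.37. These counts and medians include 13 ends kept through the controls alone and 4 kept through the knockdown libraries alone. The direction of those ends was fixed by the choice. Of the 7 loci with higher calls, a locus on chromosome 8 and a locus on chromosome 6 were higher at both ends. The upstream end was called in each, with log2 fold changes of 0.740 and 0.659 (adjusted p = 0.0377 and 0.0488 from limma).

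All 3 ends of XLOC_016202 (ENSRNOG00000053891), on chromosome 15 and the minus strand, were listed in the controls alone. Their FPKM values in the 2 controls were 28.8 and 48.9 at the upstream end (38691725 to 38693466), 6.88 and 6.65 at the middle end (38651172 to 38651303) and 5.44 and 7.73 at the downstream end (38647469 to 38648428). All of them were unlisted in the 4 knockdown libraries. limma called them, but they are among the ends that passed the minimum through the controls alone, so their direction was fixed by the choice and the calls support nothing. In the controls the upstream end held 70.0% and 77.3% of the locus, and no share exists for the knockdown libraries.

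Both ends of a locus on chromosome 2 with overlapping last exons were called lower. The end at 256897772 to 256898055 had FPKM values of 71.0 and 54.4 in the controls, 0.666 and 0.238 with sequence 2, and 3.37 and 2.41 with sequence 3. Its neighbour at 256897778 to 256899379 had 7.66 and 6.49, 0.0705 and 0.446, and 0.345 and 0.910. Every knockdown value lay below both controls, and the first end had a log2 fold change of -4.75 (standard error 0.20, adjusted p = 0.00029 from limma). The second had passed the minimum through the controls alone, so its lower level was fixed by the choice. A locus on chromosome 19 was likewise kept through the controls alone, with ends at 10908875 to 10909097 (2.39 and 2.13 in the controls) and 10904409 to 10905635 (3.57 and 3.50), which were unlisted with knockdown.

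In other loci the leading end fell and its share of the locus moved by a few points or less. The leading end of a locus on chromosome 10 (70374883 to 70376331, plus strand) had FPKM values of 177 and 156 in the controls, 24.8 and 22.3 with sequence 2, and 33.0 and 33.2 with sequence 3. It fell by 2.53 on the log2 scale (standard error 0.10, adjusted p = 0.000212 from limma). It still held 97.4% to 99.5% of its locus with knockdown, against 99.1% and 98.5% in the controls. On chromosome 7 the leading end at 26311094 to 26311360 had 37.4 and 33.8 in the controls, 16.9 and 17.4 with sequence 2, and 17.3 and 14.4 with sequence 3. It fell by 1.07 on the log2 scale (standard error 0.11, adjusted p = 0.0085 from limma), and its mean share differed by -2.70 points.

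In another locus on chromosome 6 the called end was the upstream one alone, and it was lower. The upstream end (50980804 to 50981048, plus strand) had 5.61 and 2.03 in the controls and was unlisted with knockdown. It was kept through the controls alone, which fixed its direction. The downstream end (51230590 to 51230701) had 7.80 and 6.30 in the controls, 5.96 and 5.55 with sequence 2, and 5.89 and 6.38 with sequence 3. The downstream end overlapped between the groups and its log2 fold change was -0.21 (standard error 0.13, adjusted p = 0.404 from limma).

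A neighbour of XLOC_026367 on chromosome 20 had a like pattern. Its first end (3233274 to 3233694, plus strand) had 11.7 and 12.2 in the controls and its second end (3248914 to 3249189) 5.10 and 7.87, and both were unlisted with knockdown. Both were kept through the controls alone, which fixed their direction. The third end (3250016 to 3250171) had 6.76 and 0 in the controls, 1.43 and 0.724 with sequence 2, and 1.98 and 1.21 with sequence 3. The first end led this locus in both controls, and the third was the only one listed with knockdown. The summed FPKM of the locus was below 1 in a library of sequence 2. It was therefore not tested for shares and not counted among the changes of leading end.

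Of the 7 ends called higher, 2 are given here in full, and both were kept through the knockdown libraries alone. The first end of XLOC_048201 (ENSRNOG00000023187), on chromosome X at 11080277 to 11082565 of the plus strand, was unlisted in both controls. Its FPKM was 5.97 and 7.52 in the libraries of sequence 2 and 6.84 and 4.37 in those of sequence 3, a difference of 2.82 on the log2(FPKM + 1) scale (standard error 0.21). It was kept through the knockdown libraries alone, so its call (adjusted p = 0.00239 from limma) was set up by the choice and supports nothing. It held 32.8% to 63.1% of the locus in these libraries. The fourth end, at 11105187 to 11105588, had 5.42 and 6.08 in the controls, 3.96 and 3.05 with sequence 2, and 2.99 and 6.01 with sequence 3. It led the locus in both controls and in replicate 2 of sequence 3, whereas the first end led in the other 3 libraries. The call of the first end was lost without either control, with adjusted p values of 0.0546 and 0.0523.

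The second of these is the downstream end of XLOC_012765 (ENSRNOG00000003946), on chromosome 13 and the minus strand, whose last exons stop at 73668985. The shorter exon, from 73668985 to 73670024, was unlisted in both controls and had 1.92 and 3.45 in the libraries of sequence 2 and 2.44 and 3.07 in those of sequence 3. The difference was 1.88 on the log2(FPKM + 1) scale (standard error 0.24). This end too was kept through the knockdown libraries alone, so its call (adjusted p = 0.0161 from limma) supports nothing. The longer exon, to 73672196, had 27.6 and 22.3 in the controls, 11.4 and 23.0 with sequence 2, and 21.9 and 15.2 with sequence 3, and its values overlapped between the groups. The shorter exon held 14.4% and 13.1% of the locus with sequence 2 and at most 16.8% with sequence 3. The call was lost without control replicate 1 (adjusted p = 0.14), control replicate 2 (0.129), sequence 2 replicate 2 (0.0529) or sequence 3 replicate 2 (0.057).

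Fold changes of both ends were set side by side in the 345 loci with 2 ends. Their log2 fold changes correlated at 0.065 (Pearson's r with loci as points, a description and no replicate test), and 172 loci had the same sign at both ends against 173 with opposite signs. These values include ends kept through the controls alone or the knockdown libraries alone, whose direction was set up by the choice. In the 104 loci in which both ends reached an FPKM of 1 in all 6 libraries the correlation was 0.272 and the sign was the same in 65 (62.5%). In those 104 loci the median difference in share between replicates was 5.56 points.

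**Figure D5:**
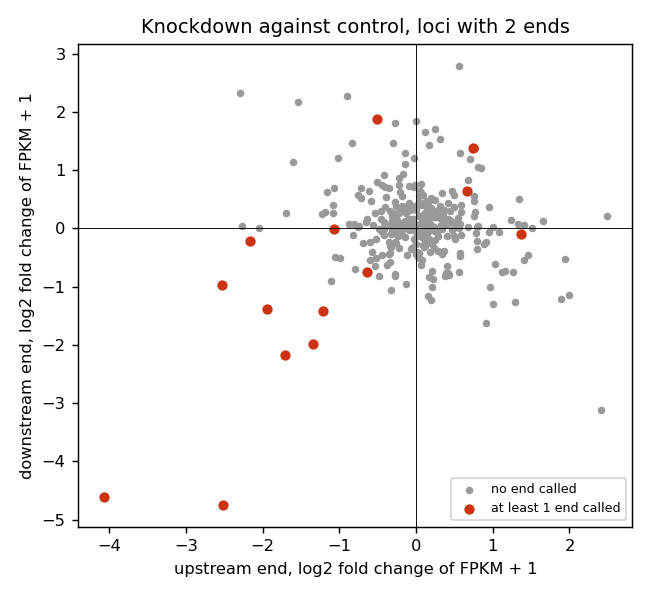
Fold change of FPKM + 1 between knockdown and control on the log2 scale at the upstream (horizontal) and downstream (vertical) end of each locus with 2 ends. Red points have at least 1 called end. The 345 points spread around 0 without a common direction, with 172 of the same sign at both ends, and the lowest red points lie low at both ends. Ends kept through the controls alone or the knockdown libraries alone are included, and their direction was set up by the choice. The lowest red points hold such ends.

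Sequence 3 and sequence 2 differed in level at 6 of the 10179 kept ends (0.0589%), and 1 of these ends belonged to a locus with several ends. This comparison was added after the values were seen. The end lies on chromosome 18 at 35883706 to 35888359 of the minus strand, in a locus without an Ensembl number. Its FPKM values were 6.23 and 5.97 in the controls, 8.51 and 8.37 with sequence 2, and 0 and 0 with sequence 3, where it was unlisted (log2 difference -3.24, adjusted p = 0.00527 from limma). The other end, at 35679020 to 35682796, had 4.93 and 2.11, 1.68 and 1.48, and 0 and 0. Both ends were thus listed in the controls and with sequence 2 and absent from the lists of sequence 3. The first end is also among those called lower with knockdown (log2 fold change -1.21, adjusted p = 0.00711 from limma), although both values of sequence 2 lay above the controls. That call was lost without control replicate 1 (adjusted p = 0.0895), control replicate 2 (0.0726), sequence 2 replicate 1 (0.0568) or sequence 2 replicate 2 (0.0564). The call between the sequences was lost without control replicate 2 (adjusted p = 0.0548), sequence 2 replicate 1 (0.0804) or sequence 2 replicate 2 (0.0771).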

How the data were processed

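The authors deposited FPKM values of transcript starts, transcript ends and splicing events for 6 libraries, not counts. Tools listed by the submitters' processing notes are HISAT2 2.0.1 (an aligner), StringTie 1.0.4 (a transcript assembler), HTSeq 0.6.1, SAMtools 0.1.18, Trimmomatic 0.30 and bcl2fastq 2.17.1.14. The program that listed events, the annotation release and the genome build were not given in the sources used here. Coordinates are those of the files.

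Transcript ends were taken from the files in Python 3.11.15 with pandas 2.3.3, where 0 repeated identifiers were found. An unlisted end was set to 0. A share is the FPKM of an end divided by the sum over the kept ends of its locus. The most downstream end was taken by strand, and by the later start of the last exon where ends coincided. Shares were tested with limma 3.58.1 (R 4.3.3) on log2((end + 1)/(other kept ends + 1)), with a trend on the mean log2(total + 1) and a mean for each group, where the summed FPKM was 1 or more in every library. Levels were tested with limma and a mean-variance trend on log2(FPKM + 1), so changes of low ends are understated. All tests are two-sided, p values were adjusted by Benjamini-Hochberg over all features tested, and the threshold was 0.05. The share test was tested on simulated data. Each end was drawn independently there, and neither mirrored nor unlisted ends were simulated, so no conclusion is drawn from it.

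The members, lists and tests were chosen with earlier results of these data known. Loci were named by rule: most ends, the 3 highest totals, widest and narrowest spacing, the highest total with an even pair, a change of leading end, and ends at the edge of the minimum. Others were named after their values were seen, with locus numbers for 2 that fell and 2 that rose. Lists of 3′ end processing factors and of cell type markers were not analysed, since 0 Ensembl numbers matched a gene name in the RefSeq table. Same-numbered libraries did not deviate together (correlations of shares 0.09, -0.131 and -0.189 between pairs of groups), so the numbers were not used as pairs. Alternatives covered the pseudocount, filters, scaling, trend, replicate block, threshold, share scale, locus total, merging of close ends, stricter minimum and left-out libraries.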

Additional observations from a re-analysis of the deposited data

Results flagged for a closer look

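The end on chromosome 18 at 35883706 to 35888359 was singled out because the effects of sequence 2 and sequence 3 differed by a direct test. The log2 difference of sequence 3 against sequence 2 was -3.24 (adjusted p = 0.00527 from limma). Its FPKM was 8.51 and 8.37 with sequence 2, and it was unlisted in both libraries of sequence 3.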

How the results depend on the processing

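Depth is unknown and each group has 2 libraries, so small share changes were beyond reach. Libraries with the same replicate number share only that number. With the replicate block, 281 kept ends (80 higher, 201 lower) were called by level in place of 433, and no share was called. With a pseudocount of 0.1 the share tests called 3 ends for knockdown, 5 for sequence 2, 7 for sequence 3 and 5 for sequence 3 against sequence 2. On the arcsine scale the last 2 comparisons called 2 ends each, and with only the 4 libraries compared sequence 2 called 2. Leaving out 1 library gave 0 to 5 ends for knockdown, 0 to 2 in each of the other share comparisons and 0 to 3 loci for the downstream end, where the calls came without sequence 2 replicate 1 (1 locus) and without sequence 3 replicate 1 (3 loci). Without the latter the knockdown test called 5 ends. By level, leaving out 1 library gave 146 to 467 calls over all kept ends and 16 to 44 in loci with several ends, and for sequence 3 against sequence 2 it gave 1 to 11 and 0 to 4. At an adjusted p under 0.01 the knockdown calls were 190 and 16, and under 0.1 they were 832 and 54. For sequence 3 against sequence 2 there were 19 calls with a pseudocount of 0.1, 15 with 0.5, 16 (3 in loci with several ends) without the trend, and 20 (2 in such loci) at an adjusted p under 0.1. The level of the first end of XLOC_026367 turned from -1.12 to 0.358 without control replicate 2 and was -2.60 without control replicate 1. The causes were not tested, apart from the fewer libraries or other threshold of these settings.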
